A study of Mus musculus with 3 samples.

Results

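The 10 genes described here encode transcription factors and cofactors linked to lymphoid priming. They are the Ikaros family members Ikzf1, Ikzf2 and Ikzf3, the chromatin organizer Satb1, the zinc finger repressor Bcl11a, the E proteins Tcf3, Tcf4 and Tcf12, and the E protein inhibitors Id1 and Id2. They are a list of names, and all 10 were found among 21646 protein-coding genes annotated on chromosomes 1 to 19 and X. Chromatin accessibility was measured by ATAC, in which a transposase cuts open DNA and leaves fragments that can be counted. Fragments were counted for each gene over 3 kinds of region: promoters, open sites within introns, and the whole gene plus 2 kb upstream.

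E proteins are basic helix-loop-helix factors that pair with each other, bind E-box sequences and are needed to start B and T lymphoid programs. Id proteins lack a basic DNA-binding region and hold E proteins in pairs that cannot bind DNA. Ikaros proteins are zinc finger factors that open or silence genes at the entry to the lymphoid lineages, and low-level activity of such genes in multipotent progenitors is known as lymphoid priming. Satb1 organizes chromatin loops in lymphocytes and their progenitors, and Bcl11a is needed for B lymphopoiesis and represses fetal globin genes.

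The cells were long-term hematopoietic stem cells (LT-HSCs) of wild-type C57BL/6 mice, which were females aged 24 months, and came from bone marrow. They had been c-Kit enriched, stained with oligo-tagged antibodies and sorted by flow cytometry. The sorted cells were c-Kit+, Sca-1+ and CD150+ and lacked lineage markers, CD34 and CD48. No other age, genotype or treatment was analysed here. ATAC, gene expression and antibody tags made 3 libraries of 1 pool of cells, so that each group of cells described below is 1 sample, with no replicate and no test. The values carry exact 95% intervals, which cover counting error only.

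Of 4369 called cells, 3724 had antibody counts and 3629 of these had at least 10 tags over 12 antibodies. The 3629 cells held 38490755 nuclear fragments, with a median of 10286 per cell (range 3852 to 45068), and a median of 29 tags, of which 67.5% were CD274. The markers of LT-HSCs were partly open at their promoters. Among all genes, the promoters of Kit, Meis1 and Hlf stood at the 91.7, 79.7 and 71.6 percentile, and those of Slamf1, which encodes CD150, and of Ly6a, which encodes Sca-1, at the 38.4 and 34.5. The median promoter percentile was 55.6 over 7 HSC markers and 67.5 over 5 megakaryocyte markers, compared with 29.5 for 5 B cell, 24.6 for 5 T cell, 31.8 for 5 myeloid and 46.0 for 5 erythroid markers. Of the cells, 274 (7.55%) had more positions covered by 3 or more fragments than a Poisson model with the mean over the cells gives. The model did not allow for the depth of each cell. Such an excess is a sign of doublets in ATAC data but can also follow from depth, and these cells were kept. They were 11.8% to 13.7% of the cells high in each of the 4 antibodies used below and 5% to 6.73% of the cells low in it.

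Accessibility at the promoters of the 10 genes was mostly above that of the middle gene. A promoter window here spans 1 kb on each side of the starts of coding transcripts, with overlapping windows merged. Levels are in FPKM, fragments per kb and 1000000 nuclear fragments, so that genes of different length can be compared. With each gene represented by its most open window, 9 of the 10 genes lay above the median of all genes (5.69), and with all windows of a gene pooled, 7 of 10 lay above the median (4.45). Over the gene body plus 2 kb, 5 of 10 exceeded the median of 0.832. In all, 36720 fragments lay over the 10 genes, 46.6% of them at promoters and 12.2% at intronic open sites.

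**Figure D1:**
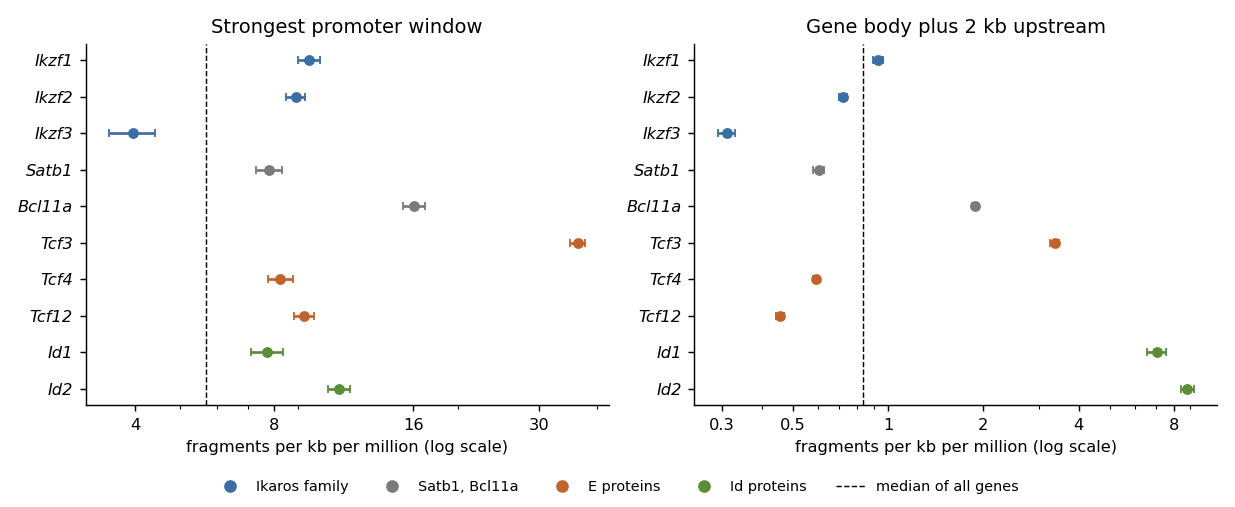
Accessibility of the 10 genes in 3629 LT-HSCs, in FPKM on a log axis, for the most open promoter window (left) and for the gene body plus 2 kb upstream (right). Points are the single pool, bars are exact 95% Poisson intervals, and dashed lines are the medians of 21646 genes (5.69 and 0.832). Tcf3 stands highest at its promoter (36.3) and Ikzf3 lowest (3.95), while Id1 and Id2 lead over the gene body.

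Ikzf1 encodes Ikaros, the founding member of the family, and lies at chr11:11685003-11772926 on the plus strand. It held 3213 fragments, a body level of 0.928 (0.896 to 0.961). Its promoter level was 9.52 (8.997 to 10.1), above that of 69.2% of genes. Of its fragments, 39.2% lay at the promoter, and 54.1% of cells had at least 1 fragment over the gene. The Ikzf1 promoter site at chr11:11685001-11686750 was followed by 3 intronic sites, 45.2, 57.9 and 81.3 kb into the gene. The most accessible of the 3 was the last (chr11:11766251-11766500), with 182 cut sites (fragment ends), at least 1 fragment in 3.44% of cells and more cut sites than 46.9% of the open sites away from promoters. The 300 bases around its summit are shown because they hold the RUNX word TGTGGT 3 times (as its reverse complement ACCACA), the most of any site at the 10 genes. This word occurred in 24.7% of 60442 open sites in windows of the same length. In the sequences shown here, capitals mark matches on either strand to 6 words of 6 letters: the E-box words CAGCTG and CACCTG, the Ikaros core TGGGAA, the GATA word AGATAA, the RUNX word TGTGGT and the ETS word AGGAAG.
Ikzf1 intron, mm10 chr11:11766177-11766476, plus strand: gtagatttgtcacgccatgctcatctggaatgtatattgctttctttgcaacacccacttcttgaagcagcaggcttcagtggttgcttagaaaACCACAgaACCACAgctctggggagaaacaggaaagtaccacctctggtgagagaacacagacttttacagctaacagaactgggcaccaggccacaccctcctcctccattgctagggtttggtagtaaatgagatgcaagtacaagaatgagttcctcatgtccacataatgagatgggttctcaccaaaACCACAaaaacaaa

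Ikzf2 encodes Helios, a relative of Ikaros best known in regulatory T cells, and lies at chr1:69531214-69687245 on the minus strand. It held 4377 fragments, a body level of 0.720 (0.698 to 0.741), and 64.1% of cells had a fragment. Its promoter level was 8.90 (8.49 to 9.33), with an interval that overlapped that of Ikzf1. Ikzf2 had 9 open sites at the threshold of 10 times the genome mean: 2 at promoters, 5 in introns and 2 upstream. Its main promoter site (chr1:69687001-69688000) held 2626 cut sites and had a fragment in 29.5% of cells. An upstream site with its summit 1.96 kb before the start (chr1:69688751-69689500) held 396 cut sites, more than 75.9% of sites away from promoters. That site is shown because it holds 2 RUNX words and 1 Ikaros core word.
Ikzf2 upstream, mm10 chr1:69689059-69689358, plus strand: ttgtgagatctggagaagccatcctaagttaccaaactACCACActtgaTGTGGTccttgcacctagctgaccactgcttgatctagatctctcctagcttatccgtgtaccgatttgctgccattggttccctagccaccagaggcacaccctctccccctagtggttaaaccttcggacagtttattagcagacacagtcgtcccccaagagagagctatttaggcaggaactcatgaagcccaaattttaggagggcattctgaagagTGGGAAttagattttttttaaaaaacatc

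Ikzf3 encodes Aiolos, the family member of mature B and T lymphocytes, and lies at chr11:98464902-98546031 on the minus strand. It was the least accessible of the 10 genes by body level (0.310, 0.291 to 0.330, from 992 fragments) and by its most open promoter window (3.95, 3.52 to 4.42). A fragment was seen in 21.8% of cells (20.4 to 23.1). Its only open site at that threshold was the promoter (chr11:98545501-98546250, 395 cut sites, 5.95% of cells), which holds 1 CAGCTG word. Within the family, the body level of Ikzf3 was below those of Ikzf1 and Ikzf2, with intervals that did not overlap.

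Satb1 lies at chr17:51736187-51833290 on the minus strand and held 2307 fragments, a body level of 0.605 (0.580 to 0.630), with a fragment in 42.5% of cells. Of its fragments, 73.8% lay within its 5 promoter windows, and no intronic site passed the threshold. The windows were used unequally. The one at the gene start held 982 fragments, a level of 7.80 (7.32 to 8.30), and the one 20.6 kb further held 509, a level of 3.52 (3.22 to 3.83). The other 3 windows held 195, 21 and 6 fragments. With all windows pooled, the Satb1 promoter level was 3.39 (3.23 to 3.55).

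Bcl11a lies at chr11:24078056-24174123 on the plus strand and held 7099 fragments, a body level of 1.88 (1.84 to 1.92), with a fragment in 81.2% of cells and 3 or more fragments in 31.4%. Its pooled promoter level was the highest of the 10 genes (15.8, 15.1 to 16.4), above that of 83.9% of genes. Both of its windows were open, with 1307 fragments at the gene start and 1206 at a start 2.61 kb further. The site at the gene start (chr11:24076001-24078500) had its summit 1.58 kb before the start and also covers the start of the neighbouring gene A830031A19Rik, so that fragments there cannot be given to 1 gene. Bcl11a had 5 intronic sites. The one with the most cut sites lay 61.6 kb into the gene (chr11:24139251-24140250) with 766 cut sites, in 10.6% of cells, and exceeded 89.7% of sites away from promoters. It is shown because it was the leading intronic site outside Tcf4, and it holds 2 ETS words and 1 Ikaros core word.
Bcl11a intron, mm10 chr11:24139477-24139776, plus strand: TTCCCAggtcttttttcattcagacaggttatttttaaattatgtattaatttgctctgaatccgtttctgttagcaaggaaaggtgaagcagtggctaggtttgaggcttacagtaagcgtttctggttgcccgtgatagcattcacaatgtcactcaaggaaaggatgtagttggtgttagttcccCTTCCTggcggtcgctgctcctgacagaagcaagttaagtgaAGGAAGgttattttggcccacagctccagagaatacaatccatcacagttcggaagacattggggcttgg

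Among the E proteins, Tcf3, which encodes E12 and E47, had the most accessible promoter. Tcf3 lies at chr10:80409514-80433647 on the minus strand and held 3376 fragments, a body level of 3.36 (3.24 to 3.47), above that of 85.7% of genes. The window at the gene start held 2830 of its 2931 promoter fragments (96.6%), a level of 36.3 (34.9 to 37.6), above the most open window of 97.9% of genes, and 51.3% of cells had a fragment there. The other 2 windows held 72 and 30 fragments, and no intronic site passed the threshold. The 300 bases of the RefSeq promoter within this window held 2028 cut sites and are shown because they were the most accessible of the RefSeq promoters matched to these genes. They hold 1 ETS word, which 35.2% of 32619 RefSeq promoters of this length hold, and neither E-box word (16.4% hold CAGCTG and 20.3% CACCTG). RefSeq promoters were matched for 6 of the 10 genes. Ikzf2, Ikzf3, Tcf4 and Id1 had no entry.
Tcf3 promoter, RefSeq, GRCm38.p6 (mm10) chr10:80433586-80433885, minus strand: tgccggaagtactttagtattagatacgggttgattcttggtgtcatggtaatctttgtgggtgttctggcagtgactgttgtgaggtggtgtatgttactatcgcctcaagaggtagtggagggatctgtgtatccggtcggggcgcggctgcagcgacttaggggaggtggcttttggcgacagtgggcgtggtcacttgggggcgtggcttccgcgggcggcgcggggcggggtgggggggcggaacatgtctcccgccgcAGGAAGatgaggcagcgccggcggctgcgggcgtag

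Tcf4, which encodes E2-2, the E protein of plasmacytoid dendritic cells, is the longest of the 10 genes (346 kb, plus strand). It held 7940 fragments, the most of the 10, with a body level of 0.593 (0.580 to 0.606) and a fragment in 84.2% of cells. It had 22 open sites, 7 at promoters, 13 in introns and 2 in exons. Of its 7 promoter windows, the one at the gene start held 1684 fragments (a level of 5.77 over 7.59 kb), and a start 249.6 kb further held 1014 (8.25). Another at 72.5 kb held 256, and the other 4 held 13 to 48. Of its fragments, 26.9% lay at intronic sites, the highest share of the 10 genes, compared with 7.998% to 15.01% in the other 4 genes with intronic sites. Its leading intronic site, 323 kb into the gene, held 834 cut sites and had a fragment in 10.8% of cells.

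Tcf12, which encodes HEB, an E protein of thymocytes, lies at chr9:71842688-72111871 on the minus strand. It held 4751 fragments, a body level of 0.455 (0.442 to 0.468), with a fragment in 67.5% of cells. Its gene body plus 2 kb overlaps 11 other annotated genes, whose fragments there are counted with it. Such overlaps were also present at Satb1 (6 genes), Ikzf2 and Bcl11a (3 each), Ikzf1 (2), and Ikzf3 and Tcf4 (1 each). The window at the gene start held 1482 of 1677 promoter fragments, a level of 9.28 (8.82 to 9.77), and a start 215 kb further held 182. There were 3 intronic sites. The one with the most cut sites lay 136 kb into the gene (chr9:71976001-71976500, 334 cut sites, 5.13% of cells). It is shown because it holds a CACCTG E-box (as CAGGTG), 1 Ikaros core word and 1 RUNX word.
Tcf12 intron, mm10 chr9:71976074-71976373, plus strand: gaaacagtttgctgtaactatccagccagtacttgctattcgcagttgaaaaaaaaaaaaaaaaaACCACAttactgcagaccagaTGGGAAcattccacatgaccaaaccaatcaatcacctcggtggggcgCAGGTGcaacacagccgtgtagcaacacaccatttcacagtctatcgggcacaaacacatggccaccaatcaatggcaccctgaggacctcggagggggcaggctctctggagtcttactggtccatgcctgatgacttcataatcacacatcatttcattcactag

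The inhibitor genes are short, so that the gene body plus 2 kb consists largely of promoter, and their body levels were the highest of the 10. Id2, at chr12:25093799-25097140 on the minus strand, held 1809 fragments, a body level of 8.80 (8.40 to 9.21) above that of 97.4% of genes and a promoter level of 11.1 (10.5 to 11.7). Id1, at chr2:152736251-152737410 on the plus strand, held 856 fragments, a body level of 7.04 (6.57 to 7.53) and a promoter level of 7.73 (7.12 to 8.37). A fragment was seen at Id2 in 37.0% of cells and at Id1 in 19.8%. Id1 had 2 open sites of similar size at its promoter, with 703 cut sites at the start and 646 at a summit 1.04 kb before it, and the latter holds both E-box words. Id2 had a site at its promoter (2316 cut sites, 27.2% of cells) and another with its summit 1.80 kb upstream (chr12:25098251-25100000, 1104 cut sites, 14.2% of cells). The upstream Id2 site exceeded 94.1% of sites away from promoters. It is shown because Id2 encodes an inhibitor of E proteins and the site holds both E-box words.
Id2 upstream, mm10 chr12:25098786-25099085, plus strand: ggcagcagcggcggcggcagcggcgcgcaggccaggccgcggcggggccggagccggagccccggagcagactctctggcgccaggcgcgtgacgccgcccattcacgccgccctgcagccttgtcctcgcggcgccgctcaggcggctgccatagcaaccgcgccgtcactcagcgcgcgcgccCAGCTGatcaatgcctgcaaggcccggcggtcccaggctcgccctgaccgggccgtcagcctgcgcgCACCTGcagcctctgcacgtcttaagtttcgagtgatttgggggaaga

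Ordered by the most open promoter window, the genes ran Tcf3, Bcl11a, Id2, Ikzf1, Tcf12, Ikzf2, Tcf4, Satb1, Id1 and Ikzf3. The intervals of neighbours overlapped in 5 places, all between Ikzf1 and Id1, where levels ran only from 9.52 to 7.73. With all windows pooled the order began with Bcl11a, and the levels of the genes with 3 or more windows were lower, at 12.4 for Tcf3, 5.15 for Tcf12, 3.39 for Satb1 and 3.16 for Tcf4, which then stood last.

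Around the most open coding start, cut sites were concentrated in a narrow region at most genes but were shared between separate peaks at Bcl11a and Id1. Of the cut sites within 2 kb of the start, 64.0% to 76.6% lay within 500 bp at Ikzf1, Ikzf2, Ikzf3, Tcf3, Tcf4, Tcf12 and Id2. The share was 50.9% at Satb1, 42.4% at Id1 and 35.8% at Bcl11a. The highest 50 bp bin lay at -1050 to -1000 bp from the start at Id1 and at -1650 to -1600 bp at Bcl11a. Short fragments, below the length of DNA wrapped on a nucleosome, made up 24.8% (Satb1) to 47.3% (Id2) of promoter fragments, compared with 32.7% of all fragments.

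**Figure D2:**
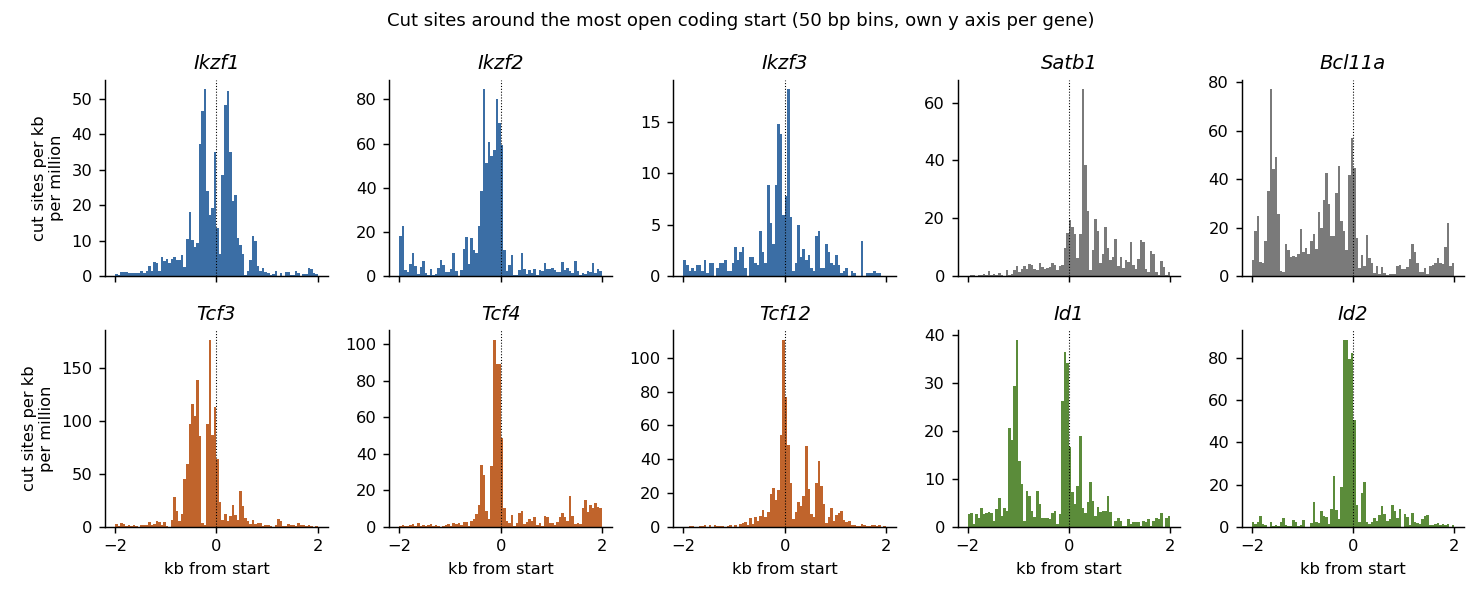
Cut sites per kb and 1000000 (y axis, own scale for each gene) in 50 bp bins within 2 kb of the most open coding start (x axis in kb, in the direction of transcription, dotted line at the start). Tcf3 has the highest bin (177, at -150 to -100 bp), and the highest bins of Bcl11a (-1650 to -1600 bp) and Id1 (-1050 to -1000 bp) lie away from the start.

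Open sites were merged 250 bp bins with at least 10 times the genome mean of 7.31 cut sites. The 10 genes held 57 of them, 23 at promoters, 29 in introns, 2 in exons and 3 upstream. All 29 intronic sites lay in Tcf4 (13), Ikzf2 (5), Bcl11a (5), Ikzf1 (3) and Tcf12 (3), and none passed in Ikzf3, Satb1, Tcf3, Id1 or Id2. This count depends on the threshold. At 5 times the mean there were 68 intronic sites, 15 each in Ikzf1 and Tcf4, 14 in Bcl11a, 11 in Tcf12, 6 in Ikzf2, 3 in Ikzf3 and 2 each in Satb1 and Tcf3. At 20 times there were 13, of which 5 lay in Tcf4 and 4 in Bcl11a. Summed over each gene's intronic sites, the density ran from 7.92 (Tcf4) to 10.6 (Bcl11a) FPKM.

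The searched words were counted in the sites of the 10 genes beside all open sites in windows of the same length. CAGCTG was in 13 of 57 (22.8%) compared with 18.9% of all open sites, and CACCTG in 8 (14.0%) compared with 20.8%. The Ikaros core TGGGAA was in 10 (17.5%) compared with 24.98%, the GATA word AGATAA in 3 (5.26%) compared with 11.5%, TGTGGT in 14 (24.6%) compared with 24.7%, and AGGAAG in 23 (40.4%) compared with 44.2%. Among the 34 sites outside promoters, CAGCTG was in 7 (20.6% compared with 19.7% of all sites away from promoters) and TGTGGT in 12 (35.3% compared with 29.1%). CACCTG was in 6 (17.6% compared with 21.4%), TGGGAA in 5 (14.7% compared with 26.5%), AGATAA in 2 (5.88% compared with 13.9%) and AGGAAG in 15 (44.1% compared with 48.2%). These counts are small, and the differences were not tested. A match is a description of letters in a window and not a measured binding site.

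**Figure D3:**
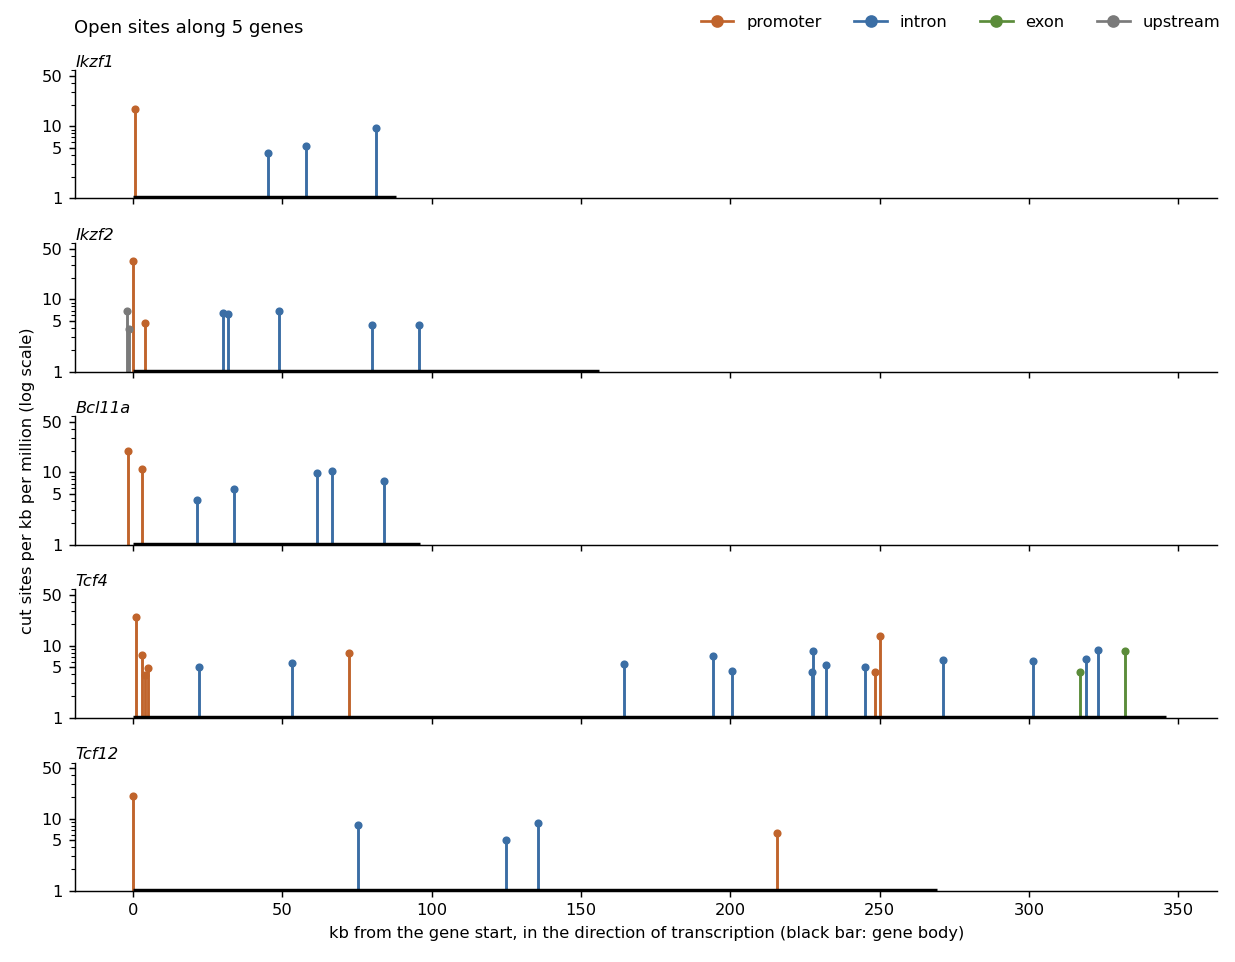
Open sites along the 5 genes with intronic sites, by distance of the summit from the gene start (x axis, kb) and density (y axis, cut sites per kb and 1000000 on a log scale), coloured by class. Black bars are gene bodies, and Tcf4 shows 13 intronic sites spread over its length, with a promoter-class site 249.99 kb into the gene.

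In single cells the data were sparse. The median cell had a fragment at 5 of the 10 genes, and 10 cells (0.276%) had a fragment at all 10. The share of cells with a fragment was below the share that a Poisson model with each cell's depth gives at all 10 genes, by 1.02 to 3.84 percentage points. This difference is not given for other genes, so whether it is particular to the 10 genes was not tested. With 3385 cells thinned to 6000 fragments each (244 shallower cells left out), the shares fell to 12.1% at Id1 and 69.2% at Tcf4 and lay between these at the other genes. A cell without a fragment at a gene is not shown to be closed there.

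The antibody tags allowed cells of the pool to be compared by tag count. In the study, PLT-HSCs (platelet biased) were gated as CD61hi CD274hi CD357lo CD27lo and MUL-HSCs (multilineage) as the opposite. CD27 and CD357 (GITR) are receptors of the tumour necrosis factor family, CD61 is integrin beta 3, and CD274 is PD-L1. For each antibody, cells with high counts were compared with cells with low counts, as near to the highest and lowest 25% of cells as ties allowed. Counts were scaled to fragments per 1000000 nuclear fragments (FPM). A gene was counted as past the fold at 1.2-fold or more in either direction with at least 200 fragments over both groups, and log2 ratios are high over low. These differences have no replicate check. Cells high in an antibody also held more tags of the other antibodies. The means were 34.4 and 29.0 other tags in cells high and low in CD27, and 32.0 and 26.2 for CD357. They were 32.4 and 24.4 for CD61, and 12.5 and 8.61 for CD274. The splits by raw count therefore do not separate surface phenotype from the tag yield of a cell.

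Over the gene body plus 2 kb, none of the 10 genes passed the fold for CD27, CD357, CD61 or CD274. Among all genes with at least 200 fragments, 3.81%, 4.17%, 6.81% and 8.14% passed it. The median log2 ratio of the 10 genes was -0.02 for CD27, 0.03 for CD357, 0.01 for CD61 and -0.00 for CD274, beside a median over all genes of -0.00 in each comparison. Summed over the 10 genes, FPM were 959 and 953 in cells high and low in CD27, 961 and 969 for CD357, 963 and 950 for CD61, and 955 and 950 for CD274. The log2 ratios of these sums were 0.01 (-0.03 to 0.05), -0.01 (-0.05 to 0.03), 0.02 (-0.03 to 0.06) and 0.01 (-0.03 to 0.05), and each interval held 0. Of the 40 ratios of single genes over this region, 1 had an interval that left out 0. Among 40 such intervals, 1 or more can leave out 0 from counting error alone. The share of all genes with such an interval is not given, here or below for promoters and intronic sites. Whether the 10 genes differ from other genes by this measure was therefore not tested.

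**Figure D4:**
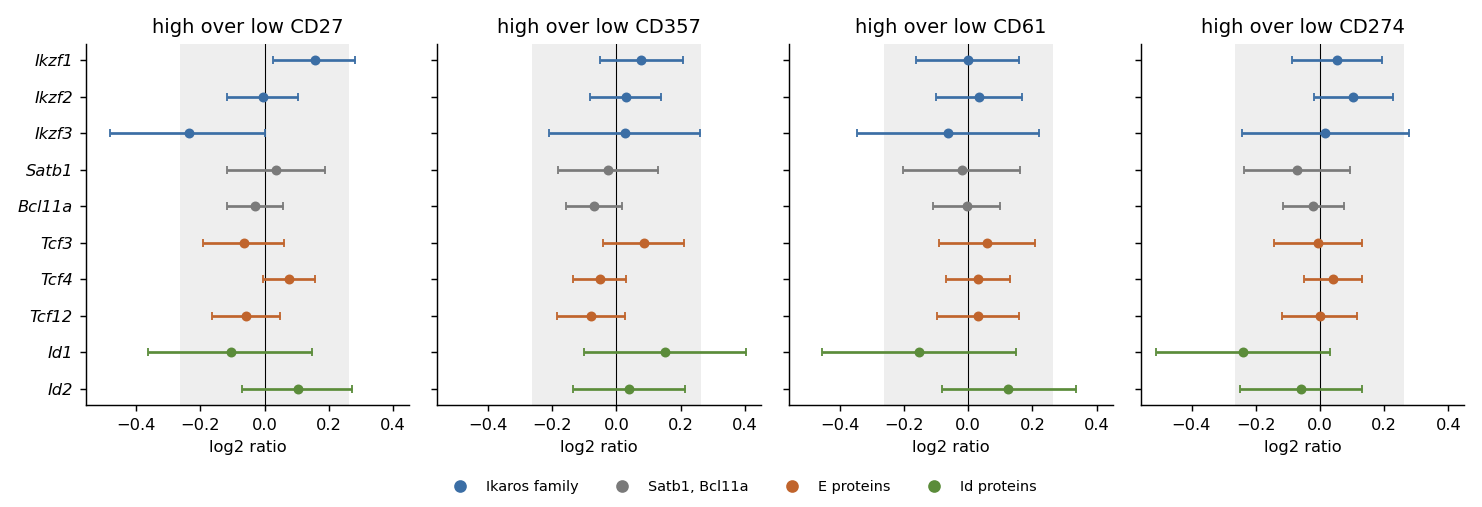
Log2 ratio of fragments over the gene body plus 2 kb upstream, cells high over cells low in each of 4 antibodies, for the 10 genes. Bars are exact conditional binomial 95% intervals, the grey band marks ratios under 1.2-fold, and only the bar of Ikzf1 by CD27 leaves out 0.

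That 1 ratio was Ikzf1 by CD27, comparing 825 cells with at least 2 CD27 tags with 1578 cells with none. Ikzf1 had 810 and 1306 fragments, 88.3 (82.3 to 94.6) and 79.3 (75.02 to 83.7) FPM, a log2 ratio of 0.16 (0.03 to 0.28). In cells with 0, 1, 2 and 3 or more CD27 tags, Ikzf1 stood at 79.3, 85.5, 84.6 and 94.4 FPM. The value was lowest with no tag and highest with 3 or more, and the intervals of these 2 groups did not overlap (75.02 to 83.7 and 84.4 to 105). At the promoter alone the log2 ratio was 0.12 (-0.08 to 0.32), and at the 3 intronic sites 0.14 (-0.31 to 0.57). Cells with excess overlaps were 11.8% of the CD27-high and 6.27% of the CD27-low cells, and without them the ratio was 0.13 with an interval that held 0 (-0.01 to 0.27). The summed B cell, T cell and myeloid markers stood at 111, 59.7 and 88.3 FPM in CD27-high cells and at 109, 56.0 and 81.9 in CD27-low cells, with none of the 7 markers of at least 200 fragments past the fold. The myeloid marker Csf1r, with 501 and 759 fragments, had a ratio of 0.25 (0.08 to 0.41), with an interval that left out 0, while the other 4 myeloid markers had ratios below 0 with intervals that held it. The part of either in the Ikzf1 value was not tested. Over 11 alternatives of processing, leaving out counts of cut sites, in which both ends of a fragment count, the ratio ran from 0.11 to 0.26, and the interval left out 0 in 4 of the 12 settings, counting the one given first.

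Ikzf2 and Ikzf3 had ratios below 0 by CD27, with intervals that held 0, and whether they differ from Ikzf1 was not tested. The family members outside the 10 genes, Ikzf4 (0.14, -0.08 to 0.37) and Ikzf5 (0.11, -0.09 to 0.30), had ratios above 0, also with intervals that held it. Ikzf3 by CD27 gave 23.0 and 27.1 FPM, a log2 ratio of -0.24 (-0.48 to 0.00), and at its promoter 50 and 135 fragments, a ratio of -0.58 (-1.09 to -0.11). Over 10 alternatives the Ikzf3 ratio ran from -0.58 to -0.17, and its interval left out 0 in 5 of them, although not in the setting given first. The 4 groups of CD27 counts gave Ikzf3 levels of 27.1, 26.0, 22.3 and 24.2, and their intervals overlapped. Ikzf2 by CD27 gave 113 and 114 FPM, a ratio of -0.01 (-0.12 to 0.10), with a lower value at its intronic sites, where 135 and 302 fragments gave a ratio past the fold (-0.31, -0.62 to -0.02). The lowest of its 5 sites, 49.0 kb into the gene, held 27 and 88 fragments (-0.84, -1.54 to -0.22), and the others ran from -0.36 to 0.40. The intronic sites of Tcf12, with 73 and 173 fragments, were also past the fold (-0.39, -0.82 to 0.00). That value rested on 1 site, 75.5 kb into the gene (15 and 67 fragments, -1.28, -2.23 to -0.49), with the other 2 at -0.08 and 0.24. Of all open sites with at least 200 fragments, 9.66% passed the fold for CD27, and each of these single sites held fewer.

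The E protein genes and their inhibitors had CD27 ratios from -0.10 (Id1) to 0.10 (Id2), and every interval held 0. Tcf3 had a log2 ratio of -0.06 (-0.19 to 0.06) by CD27, Tcf4 0.08 (-0.00 to 0.16) and Tcf12 -0.06 (-0.16 to 0.05). Tcf4 was the only one of the 10 genes whose values were ordered upward over the 4 groups of CD27 counts (203, 205, 213 and 216 FPM), with overlapping intervals. Its intronic sites had a ratio of 0.21 (0.06 to 0.37) by CD27, and over 11 alternatives the Tcf4 ratio ran from -0.04 to 0.21, with an interval that left out 0 in 3. A small Tcf4 promoter-class site, 248.6 kb into the gene, held 8 and 57 fragments by CD27 (-1.91, -3.27 to -0.91). This was the lowest CD27 ratio of the 57 sites, and the site was picked after the values were seen. It held fewer fragments than the minimum used for the fold. The share of such small sites over the genome with a ratio this low is not given. Whether the ratio is particular to this site was therefore not tested. Id1 was the only one of the 10 genes ordered downward over the 4 groups of CD27 counts (22.8, 22.4, 21.6 and 20.4), also with overlapping intervals. Over all 4 antibodies, 1 series of the 10 genes rose and 1 fell. Such an order can arise from counting error alone, and its share over all genes is not given. Id2 had a ratio of 0.10 (-0.07 to 0.27).

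For CD357 (968 cells with at least 5 tags against 1200 with at most 1), ratios ran from -0.08 (Tcf12) to 0.15 (Id1, -0.10 to 0.40). The Ikzf1 promoter window had 36.6 and 30.5 FPM, a ratio of 0.26 (0.06 to 0.47), while the whole Ikzf1 gene had 0.08 (-0.05 to 0.21). For CD61 (779 cells with at least 6 tags against 727 with at most 1), ratios ran from -0.15 (Id1, -0.45 to 0.15) to 0.13 (Id2, -0.08 to 0.33). Ikzf1 stood at 79.1 and 79.2 FPM, a ratio of -0.00 (-0.16 to 0.16). Of the whole genes, pooled promoters and pooled intronic sites, only the intronic sites of Tcf12 had an interval that left out 0 for CD61, with 107 and 64 fragments (0.53, 0.07 to 1.004). Of its 3 sites, that 75.5 kb into the gene held 35 and 14 fragments and had the highest ratio (1.08, 0.18 to 2.12).

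For CD274 (937 cells with at least 27 tags against 877 with at most 12), ratios ran from -0.24 (Id1, -0.51 to 0.03) to 0.10 (Ikzf2, -0.02 to 0.23). Id1 had 220 and 235 fragments, 21.3 and 25.1 FPM. The intronic sites of the 10 genes together had a ratio of 0.13 (0.01 to 0.25). Over all open sites with at least 200 fragments, the median log2 ratio by CD274 was also above 0, at 0.04. CD274-high cells had a larger share of their fragments in open sites (median 66.6%) than CD274-low cells (64.8%), and the summed myeloid markers stood at 96.6 FPM compared with 80.1. Both myeloid markers with at least 200 fragments were past the fold, Csf1r (0.39, 0.20 to 0.57) and Itgam (0.27, -0.02 to 0.55), as was the erythroid marker Epor in the other direction (-0.69, -0.98 to -0.41). The myeloid markers Elane (0.05, -0.37 to 0.48) and Mpo (-0.23, -0.75 to 0.28) held fewer than 200 fragments and had intervals that held 0. The part of the open-site share and of these markers in the ratio of the intronic sites was not tested. Scaled by fragments in open sites, the sum over whole genes moved from 0.01 to -0.04 (-0.08 to -0.00).

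Across the 4 groups of counts of each antibody, giving 40 series for 10 genes and 4 antibodies, the highest group was at most 1.27 times the lowest (Ikzf3 by CD357). All 4 intervals overlapped in 37 of 40 series. The exceptions were Ikzf1 by CD27, Ikzf1 by CD61 (79.2, 90.8, 81.1 and 79.1 FPM) and Tcf3 by CD61 (89.7, 81.6, 89.1 and 93.4), none of which ran in 1 direction. The share of such exceptions over all genes is not given. Whether the 10 genes differ from other genes in this was therefore not tested.

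**Figure D5:**
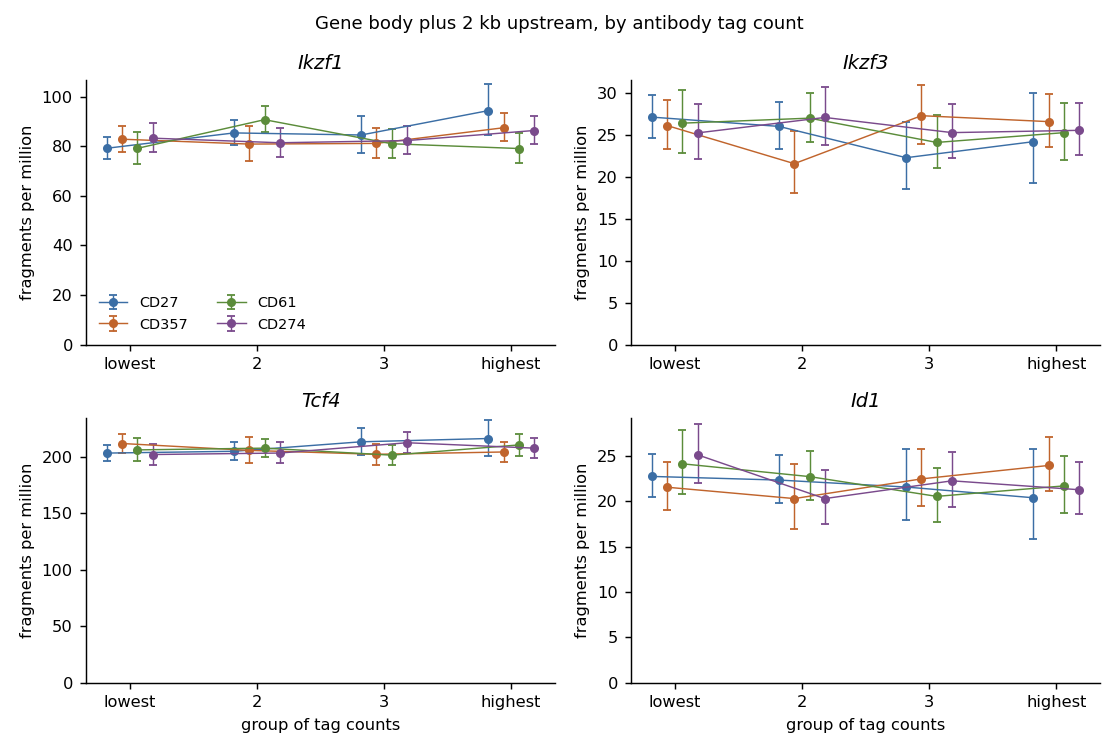
FPM over the gene body plus 2 kb upstream of Ikzf1, Ikzf3, Tcf4 and Id1 (y axes from 0) in 4 groups of cells ordered by tag count for each of 4 antibodies. Points are the group totals with exact 95% Poisson intervals, and Ikzf1 by CD27 runs from 79.3 to 94.4 and is the only CD27 series of the 10 genes without a value shared by all 4 intervals.

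Single open sites were compared in the same way. Among sites with at least 200 fragments over both groups, 0 of 17 sites of the 10 genes passed the fold for CD27 (9.66% of all such sites did), 2 of 17 for CD357 (10.1%), 1 of 11 for CD61 (11.6%) and 0 of 17 for CD274 (16.2%). The sites past the fold, named after their values were seen, were the second Id1 promoter site (0.26, -0.11 to 0.64) and a Tcf4 promoter site 2.99 kb into the gene (-0.29, -0.66 to 0.08) for CD357, and the upstream Id2 site for CD61 (0.27, -0.08 to 0.64). Each of these intervals held 0. Of the sites with at least 200 fragments, the Ikzf1 promoter site was the only one with an interval that left out 0, for CD357, with 34.5 and 28.9 FPM (0.26, 0.04 to 0.47). The Tcf12 promoter site at chr9:72110751-72112500 had the lowest upper bound for CD27 (-0.14, -0.34 to 0.06), CD61 (-0.14, -0.38 to 0.10) and CD274 (-0.19, -0.40 to 0.02). The main Ikzf2 promoter site had the highest lower bound for CD61 (0.22, -0.02 to 0.46) and CD274 (0.20, -0.02 to 0.42). The whole Ikzf2 promoter window by CD274, with 484 and 381 fragments, had an interval that left out 0 (0.20, 0.004 to 0.40). For CD27 the highest lower bound was that of the Satb1 site at the gene start (0.17, -0.08 to 0.41), and for CD357 the lowest upper bound was that of the first Bcl11a promoter site (-0.11, -0.28 to 0.06).

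Gates of the same 4 antibodies were set here at the median tag count of each, which is not a cut-off of the study, and gave 342 PLT-gated and 61 MUL-gated cells. In the gates together, 7 of the 10 genes held 200 fragments or more. Of these 1 passed the fold, Ikzf1, with 75.4 and 90.0 FPM (-0.27, -0.68 to 0.20), where 29.0% of all such genes passed it. The interval of every one of the 10 genes held 0. Ikzf3, Id1 and Id2 held fewer than 200. The lowest ratio was that of Id1, with 77 and 22 fragments (-0.78, -1.45 to 0.00), and at its promoter 55 and 18 (-0.98, -1.74 to -0.09). The sum over the 10 genes was 971 and 988 FPM (-0.03, -0.15 to 0.10). Of 2 sites with at least 200 fragments, 1 passed the fold (32.0% of all such sites did), the first Bcl11a promoter site (-0.29, -0.79 to 0.28), and the other was the Tcf3 promoter site (0.14, -0.32 to 0.66). The MUL gate held 61 cells, and except at the Id1 promoter no interval of a single gene, promoter or set of intronic sites left out 0.

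Of 25 other lymphoid genes (other Ikzf, Id, Satb and Bcl11 family members, antigen receptor recombination genes, receptors and lineage factors), 20 lay above the median promoter level. Their median promoter percentile was 60.4, compared with 65.4 for the 10 genes. The most open promoter was that of Id4 (21.4, the 91.6 percentile), which encodes another inhibitor of the Id family, and the least open was that of Il7r (0.272, the 24.5 percentile), which encodes the interleukin 7 receptor of lymphoid progenitors. Among the 23 of these genes with at least 200 fragments in each antibody comparison, none passed the fold for CD27, CD61 or CD274, and 2 did for CD357 (4.17% of all genes did), both higher: Id3, an Id family inhibitor (0.39, 0.14 to 0.64), and Rag2, a recombinase gene (0.28, 0.04 to 0.53). Over all cells kept, 99 of the 956 Rag2 fragments lay at its promoter. Other annotated genes that overlap the 25 genes are not given, and their fragments would be counted with them. Between the gates, 3 of 13 other lymphoid genes with at least 200 fragments passed the fold (29.0% of all genes did). Myb was higher in the PLT gate (0.30, -0.19 to 0.87), and Tcf7 (-0.43, -0.91 to 0.10) and Lef1 (-0.27, -0.76 to 0.27) were lower.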

How the data were processed

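LT-HSCs of 1 pool were profiled for chromatin accessibility, RNA and antibody tags. Per the submitters' processing notes, the authors aligned reads to mm10 with Cell Ranger ARC 2.0.2, and the deposited ATAC file lists fragments with duplicates collapsed and read counts per fragment. The antibody table holds deposited whole-number counts of tags. The sources used here do not give the version of its counting tool. The RNA matrix was not analysed here. Each listed fragment was counted 1 time in cells with at least 10 summed tags. Genes were those of GENCODE M21. Levels are fragments per kb and 1000000 nuclear fragments (FPKM), with exact 95% Poisson intervals. Ratios had 0.5 added to each count and carry exact conditional binomial intervals. Motif shares use 300 base windows. With 1 sample a group no test was run. Depth per cell was 3852 to 45068 nuclear fragments (median 10286).

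All 10 genes are named, and of 25 other lymphoid genes the highest and lowest by level and those past the fold. Ikzf4 and Ikzf5 are also named, by CD27, beside the Ikaros genes of the list. Sites named are the promoter and intronic sites with the most cut sites and, per comparison, those with the highest lower and lowest upper bound among sites with at least 200 fragments. Other sites named, in Ikzf2, Tcf4 and Tcf12 and those past the fold, were chosen after their values were seen. The sequences printed for sites in Ikzf1, Ikzf2, Tcf12 and Id2 were chosen for the words they hold, so those words are not a result about these sites. The genes and lists were chosen with earlier results of these data known. Doublets were not removed. Alternatives covered tag minimum, tag scale, split, scaling, region, cut sites, overlap and depth filters, window and site threshold. Scripts were tested on simulated data and used Python 3.11.15, numpy 2.4.6, scipy 1.17.1, pandas 2.3.3 and matplotlib 3.10.9.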

Additional observations from a re-analysis of the deposited data

Results flagged for a closer look

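The 95 cells with antibody counts but fewer than 10 tags, which no comparison above used, held 1115 fragments over the 10 genes. That is 1044.6 per 1000000 nuclear fragments (984 to 1108), compared with 954 (944 to 964) in the 3629 cells kept, and the intervals do not overlap. The value is given because signal was present in cells outside the comparisons, and its cause was not tested.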

How the results depend on the processing

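Of 608 recomputed values, 552 moved by less than their counting interval. The sign differed from that given first in 101, of which 15 were sums over the 10 genes, and no ratio whose sign changed had an interval that left out 0 as first given. After the change the interval left out 0 in 1 sum, CD274 scaled by open-site fragments, and in 1 gene, Ikzf1 by CD274 with at least 50 tags (-0.48). Over all 10 genes, 55 summary values stayed and 9 moved. With at least 50 tags per cell, the log2 ratio of the sum was -0.034 for CD61 and -0.070 for CD274. With promoter windows it was 0.029 for CD357, with intronic sites 0.13 for CD274 and 0.19 between the gates, and with scaling by open-site fragments -0.042 for CD274. Open sites numbered 96 at 5 times and 34 at 20 times the genome mean. The mean share of cells with a fragment was 38.8% after thinning, compared with 52.9%, which fewer fragments per cell give by construction. The causes of the other shifts were not tested. Among single genes, 497 values stayed and 47 moved, 20 of them with at least 50 tags per cell and 13 with intronic sites. The share of all genes past the fold at a minimum of 20 or 1000 fragments was 10.7% and 0.221% for CD27, 11.0% and 0.287% for CD357, 14.1% and 0.787% for CD61, 15.7% and 1.63% for CD274, and 45.1% and 7.14% between the gates. No paired analysis was possible because each group was 1 sample and no test was run. Depth limits single genes to ratios no finer than the intervals given, and the pool of 1 library gives no spread between animals.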
